A study of Mus musculus with 2 samples.

Results

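The imprinted Kcnq1 domain of distal mouse chromosome 7 was followed in primordial germ cells (PGCs), from which the gametes descend, through 9 listed genes: Phlda2, Cdkn1c, Slc22a18, Nap1l4, Ascl2, Kcnq1, Kcnq1ot1, Cd81 and Tssc4. They were found by an exact match of the gene symbol, and 8 of the 9 had a row among the 18877 genes of the table, while Kcnq1 was not analysed here. RNA-seq was performed on 2 biological replicates of 1 group, untreated PGCs of C57BL6 embryos at E9.5 that were isolated by SSEA1, a carbohydrate antigen on their surface. The embryos were female by the methods, which describe Smart-seq2 cDNA, whereas the labels name another library kit. For E9.5 PGCs the methods give flow cytometry with antibodies to SSEA1 and the integrin CD61, or magnetic beads with SSEA1 alone. Levels are TPM, a length-scaled share of the transcripts in a library, so they can be compared between genes. No other group was analysed here, so each value is given for both libraries and no test between groups was possible.

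Imprinted genes are expressed mainly from the allele of 1 parent. In this domain the long non-coding RNA Kcnq1ot1 starts within an intron of the potassium channel gene Kcnq1, runs antisense to it from the paternal chromosome, and represses the paternal copies of neighbouring genes, some in the embryo and others only in the placenta. The differentially methylated region at its promoter is methylated in oocytes, and this imprint is erased in PGCs before it is set again in the female germline. An inbred strain and 1 value per gene do not separate the parental alleles, so parental expression was not measured here.

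The sequences before the starts of the highest and the lowest protein-coding gene of the domain, and of the RNA that silences it, are shown because they are the domain's promoters with the widest range of expression. They were read from RefSeq promoter windows on GRCm38.p6, lie on the minus strand of chromosome 7, are printed 5′ to 3′ without annotated UTR bases, and carry in capitals each CCAAT box on either strand (CCAAT or its reverse complement ATTGG). The Phlda2 stretch is chr7:143502542-143502774, the Ascl2 stretch is chr7:142969265-142969514, and the Kcnq1ot1 stretch is chr7:143296548-143296797. The Phlda2 stretch stops short of the RefSeq start, because GENCODE places a UTR between them. It also lies within an exon of a longer GENCODE transcript of Phlda2 that is not annotated as coding, and the 5′ end of that transcript is the one used for distances.
Phlda2: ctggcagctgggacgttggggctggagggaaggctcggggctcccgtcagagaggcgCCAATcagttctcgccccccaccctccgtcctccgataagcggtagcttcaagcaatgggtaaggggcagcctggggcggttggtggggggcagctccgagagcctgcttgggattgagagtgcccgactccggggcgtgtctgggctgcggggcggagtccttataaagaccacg
Ascl2: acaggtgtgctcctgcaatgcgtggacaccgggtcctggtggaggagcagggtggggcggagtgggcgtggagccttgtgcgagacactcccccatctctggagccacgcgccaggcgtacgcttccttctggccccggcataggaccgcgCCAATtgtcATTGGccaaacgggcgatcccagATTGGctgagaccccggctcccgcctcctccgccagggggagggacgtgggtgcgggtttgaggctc
Kcnq1ot1: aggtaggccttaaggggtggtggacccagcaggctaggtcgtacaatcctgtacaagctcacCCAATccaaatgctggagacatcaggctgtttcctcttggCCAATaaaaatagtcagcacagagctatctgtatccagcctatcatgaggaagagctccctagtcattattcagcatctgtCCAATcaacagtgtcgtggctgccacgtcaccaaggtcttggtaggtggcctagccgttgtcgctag

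Windows of 300 bases (250 before the start and 50 after it) were found for 6 of the 9 genes. The Phlda2 window held 26 CpG sites, more than 83.1% of the 32851 RefSeq windows. The windows of Ascl2, Cd81 and Tssc4 held 23 CpG sites each, more than 78.5% of windows. The Kcnq1ot1 window held 9 CpG sites and that of Slc22a18 held 2, against a median of 7 over all windows. CpG number and level did not run together over these 6 genes, since windows with 23 CpG sites belonged to genes from 0.130 to 4.55 TPM on average. Kcnq1ot1 and Ascl2 each held 3 CCAAT boxes, a number reached by 3.37% of all windows, and both were at or under about 1 TPM. Phlda2 and Tssc4 held 1 box each and Cd81 and Slc22a18 held none, while 37.4% of all windows held at least 1. A match of letters is a description of the sequence and is not a binding site.

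Phlda2 was far above every other gene of the domain. Phlda2 encodes a small pleckstrin homology domain protein that restrains placental growth. Its level was 1229 TPM in replicate 1 and 1176 TPM in replicate 2 (mean 1203 ± 36.9, SD, n = 2), backed by 13093 and 4409 reads. The exact 95% counting intervals were 1208 to 1250 TPM and 1142 to 1212 TPM, and they cover counting error only. Only 134 genes in replicate 1 and 142 genes in replicate 2 were higher, out of the whole table. Phlda2 took 0.123% and 0.118% of all TPM in the libraries. Its level was 0.809 and 0.748 times that of Ifitm3, an early PGC gene of the same chromosome, and 0.245 and 0.232 times that of Dppa3, a germ cell and oocyte factor that ranks among the highest PGC markers.

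The second highest gene was Cdkn1c, an inhibitor of cyclin-dependent kinases that holds cells out of the cell cycle. Cdkn1c was measured at 18.7 TPM in replicate 1 and 17.5 TPM in replicate 2 (mean 18.1 ± 0.862, SD, n = 2), from 362 and 119 reads. These values placed it above 80.8% and 80.6% of genes. The step from Phlda2 down to Cdkn1c was 65.8-fold in replicate 1 and 67.4-fold in replicate 2, which is a mean difference of 5.98 ± 0.0210 (SD, n = 2) in log2(TPM + 1). The antisense gene Gm44732, at 8.45 and 8.95 TPM, shares 625 of its 635 exonic bases with Cdkn1c, and strand handling in the counting is not stated, so reads of the pair cannot be told apart.

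Nap1l4, which encodes a histone chaperone of the nucleosome assembly family, stood beside Cdkn1c. Its level was 17.0 TPM in replicate 1 and 14.8 TPM in replicate 2 (mean 15.9 ± 1.54, SD, n = 2). The counting intervals of Cdkn1c and Nap1l4 overlapped in both libraries, so their order was not resolved. Slc22a18, a membrane transporter of the organic ion transporter family, came next with 9.91 TPM in replicate 1 and 10.4 TPM in replicate 2 (mean 10.1 ± 0.340, SD, n = 2). Nap1l4 was above Slc22a18 beyond the counting intervals in replicate 1 but not in replicate 2.

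Cd81 and Tssc4 were low, and each led the other in 1 library. Cd81, a tetraspanin of the cell surface, was at 6.50 TPM in replicate 1 and 2.60 TPM in replicate 2 (mean 4.55 ± 2.76, SD, n = 2), from 178 and 25 reads. Tssc4, a protein of spliceosome assembly, was at 2.39 TPM in replicate 1 and 4.38 TPM in replicate 2 (mean 3.39 ± 1.40, SD, n = 2), from 42 and 27 reads. In replicate 1 Cd81 was higher with intervals that did not overlap, and in replicate 2 Tssc4 was higher with intervals that did. The exons of Tssc4 share 220 bases with Trpm5, 11.9% of its exonic length.

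Kcnq1ot1 was measured at 1.02 TPM in replicate 1 and 0.983 TPM in replicate 2 (mean 0.9996 ± 0.0231, SD, n = 2). Its low TPM stood on many reads, 899 and 306, because they were spread over a single exon of 93092 bases. That is 9.66 and 3.29 reads per kilobase in the deeper and the shallower library, where Phlda2 had 11680 and 3933. By reads, and not per length, Kcnq1ot1 exceeded 85.7% and 86.0% of all genes, and by TPM 32.0% and 33.0%. Phlda2 was 1209-fold and 1197-fold above Kcnq1ot1 in TPM.

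Ascl2, a transcription factor that the spongiotrophoblast of the placenta depends on, was the lowest gene of the domain. It was at 0.259 TPM in replicate 1, from 4 reads, and at 0 in replicate 2, where a count of 0 allows up to 0.553 TPM. The interval in replicate 1 was 0.0706 to 0.664 TPM, so a difference between the libraries was not detectable at this depth. Of the 12 trophoblast markers listed, 5 had a row. While 60.0% of all genes reached 1 TPM in both libraries, 1 of these 5 markers did (Gcm1, at 1.73 and 1.74 TPM). Their summed level was 2.88 TPM in replicate 1 and 3.06 TPM in replicate 2, with Eomes at 0 in replicate 1 and Hand1 at 0 in replicate 2. Phlda2, which is also abundant in placenta, stood at 1229 and 1176 TPM in the same libraries. The part of trophoblast cells in its level was not tested.

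**Figure D1:**
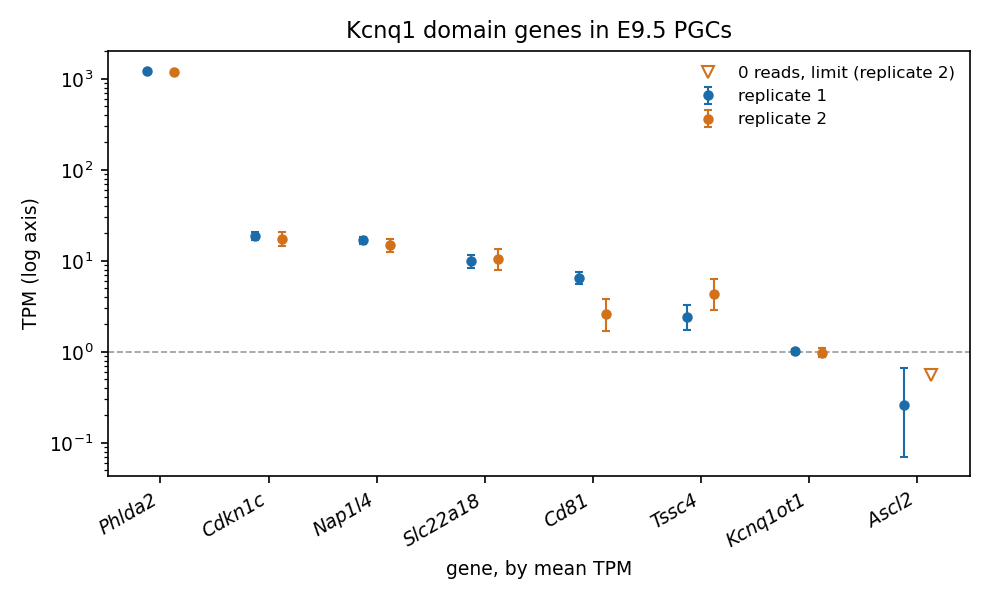
TPM of the 8 Kcnq1 domain genes in both E9.5 PGC libraries on a log axis, with exact 95% counting intervals as bars, an open triangle at the limit for 0 reads, and a dashed line at 1 TPM. Phlda2 is at 1229 and 1176 TPM and the next gene, Cdkn1c, at 18.7 and 17.5 TPM.

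At a threshold of 1 TPM in both libraries, 6 of the 8 genes were detected, where 60.0% of all genes in the table passed the same threshold. Ascl2 was below 1 TPM in both libraries and Kcnq1ot1 lay on either side of it. The median over the 8 genes was 3.18 and 2.97 in log2(TPM + 1), beside 1.89 and 1.85 over all genes. Phlda2 alone held 95.7% and 95.9% of the summed TPM of the 8 genes. By recovered reads its share was 85.9% and 86.5%, and Kcnq1ot1 then followed with 5.90% and 6.002% in place of 0.0791% and 0.0801% of the TPM.

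Levels were also set against the side of the Kcnq1ot1 start, which had not been used to choose the genes, although all were chosen as genes of this stretch of chromosome 7. From Ascl2 to Nap1l4 the genes span 582 kb, and distances are given from the 5′ end of Kcnq1ot1 to the 5′ end of each gene. Cdkn1c (165 kb), Slc22a18 (177 kb), Phlda2 (207 kb) and Nap1l4 (253 kb) lie at higher coordinates than this start. Tssc4 (-227 kb), Cd81 (-244 kb) and Ascl2 (-327 kb) lie at lower coordinates, beyond the end of the Kcnq1ot1 transcript. Each of the 4 genes at higher coordinates was above each of the 3 genes at lower coordinates in both libraries. The lowest of the 4, Slc22a18, was apart from the highest of the 3 by counting intervals that did not overlap, which was Cd81 in replicate 1 and Tssc4 in replicate 2. Outside the span the sides did not divide in this way: Ins2, at -553 kb, was at 18.5 and 16.6 TPM, above Slc22a18. Cars, at 304 kb, was at 4.59 and 5.04 TPM, below Slc22a18, and Dhcr7 and Nadsyn1 on the same side were lower still. The 7 genes differ in their promoters and in their tissues of known expression, and the part of position in their levels was not tested.

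**Figure D2:**
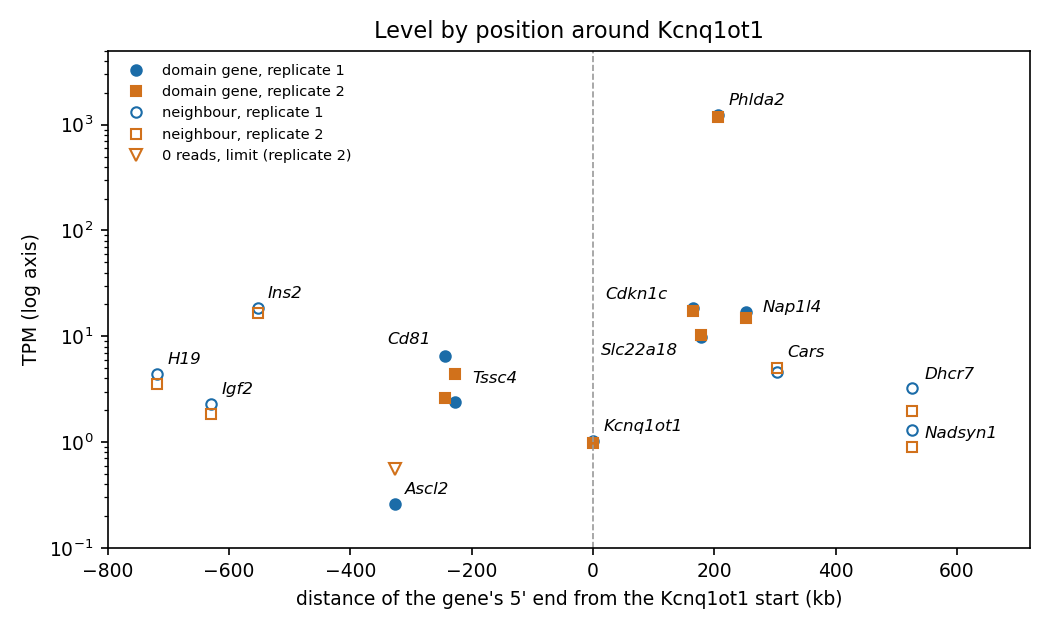
TPM on a log axis against the distance in kb between the 5′ end of each gene and that of Kcnq1ot1 (dashed line), for the domain genes (filled) and 6 neighbouring genes (open) in replicate 1 (circles) and replicate 2 (squares), with an open triangle at the limit for 0 reads of Ascl2 in replicate 2. Cdkn1c, Slc22a18, Phlda2 and Nap1l4 on the right are above Tssc4, Cd81 and Ascl2 on the left in both libraries, while the neighbour Ins2 on the left is at 18.5 and 16.6 TPM and Cars on the right at 4.59 and 5.04 TPM.

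The table held 13 genes inside this span, of which 8 were the domain genes described here. Gm27389, Gm27803 and Gm27539 lie wholly inside the Kcnq1ot1 exon on the opposite strand. The first 2 were at 0 in both libraries, and Gm27539, whose start is 2.6 kb from that of Kcnq1ot1, had 16 reads in replicate 1 and 0 in replicate 2. R74862, opposite to Cd81 and sharing 104 exonic bases with it, had 34 and 3 reads. Whether reads had been counted for overlapping genes of either strand was examined over the whole table. Among genes lying wholly within the exons of 1 gene of the opposite strand, none of 105 in replicate 1 and none of 90 in replicate 2 had more reads than its host. Among genes nested in this way on the same strand, none of 24 and none of 20 had more reads than its host. Where the nested gene shared no exonic base with an opposite-strand host, it had at most the host's reads in 69.8% and 68.1% of cases. Kcnq1ot1 shares 121 of its exonic bases with Kcnq1, which is 0.130% of its length, and the rest lies within Kcnq1 on the opposite strand, so reads of Kcnq1ot1 and of unspliced Kcnq1 RNA cannot be told apart.

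The members were next compared between the replicates. Replicate 1 held 15912469 recovered reads and replicate 2 held 5458687, a ratio of 2.92, so the values of replicate 1 carry less counting error. Past 2-fold in log2(TPM + 1) was 1 of the 8 genes, Cd81, where 10.2% of all genes were past it. Cd81 was lower in replicate 2 by 1.06 on the log2 scale, a ratio of 0.399 with an exact counting interval of 0.252 to 0.609. The 4 measured macrophage markers of 5 listed (Csf1r, Tyrobp, Fcer1g and C1qb) were also all lower in replicate 2, with a summed level of 19.4 TPM in replicate 1 and 9.53 TPM in replicate 2 and C1qb at 0 in replicate 2. The ratio intervals of Tyrobp (0.0851 to 1.53) and C1qb (0 to 1.02) included 1, and those of Csf1r and Fcer1g did not. Of the 5 measured endothelial markers of 6 listed, Kdr, Emcn, Tek and Cldn5 were lower in TPM in replicate 2 as well. The ratios were 0.195 for Kdr (interval 0.0614 to 0.476), 0 for Emcn (0 to 0.0979) and 0.49 for Tek (0.223 to 0.967). For Cldn5, from 6 reads and 1 read, the interval of 0.0103 to 3.91 included 1. Pecam1, at 8.23 and 9.99 TPM, was higher in replicate 2 and held most of the summed endothelial level of 12.9 and 11.0 TPM. All 4 measured mesenchyme markers were also higher in replicate 2. The ratio interval of Pdgfra (2.78 to 11.3) left out 1, and those of Twist1, Col1a2 and Col3a1 included it. Of the 5 measured endoderm markers, 3 were higher and 1 was lower in replicate 2, where 51.3% of all genes were lower. The intervals of Foxa2, Apoa1 and Rbp4 (higher) and of Afp (lower) left out 1. The part of these markers' cells in the Cd81 difference was not tested.

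Tssc4 differed in the opposite direction, by 0.66 on the log2 scale, with a ratio of 1.83 (interval 1.08 to 3.03). For Phlda2 the ratio was 0.957 (interval 0.925 to 0.991), a small difference that its read number resolves. The intervals of Cd81, Tssc4 and Phlda2 thus left out a ratio of 1, which is 3 of 8 genes where 39.0% of the genes with reads did so. Cdkn1c (ratio 0.935), Nap1l4 (0.872), Slc22a18 (1.05) and Kcnq1ot1 (0.968) had intervals that included 1. In all, 6 of the 8 genes were lower in replicate 2, where 51.3% of all genes were, and their median log2 difference was -0.08 beside -0.01 over all genes. With 1 library on each side, these differences describe the libraries.

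**Figure D3:**
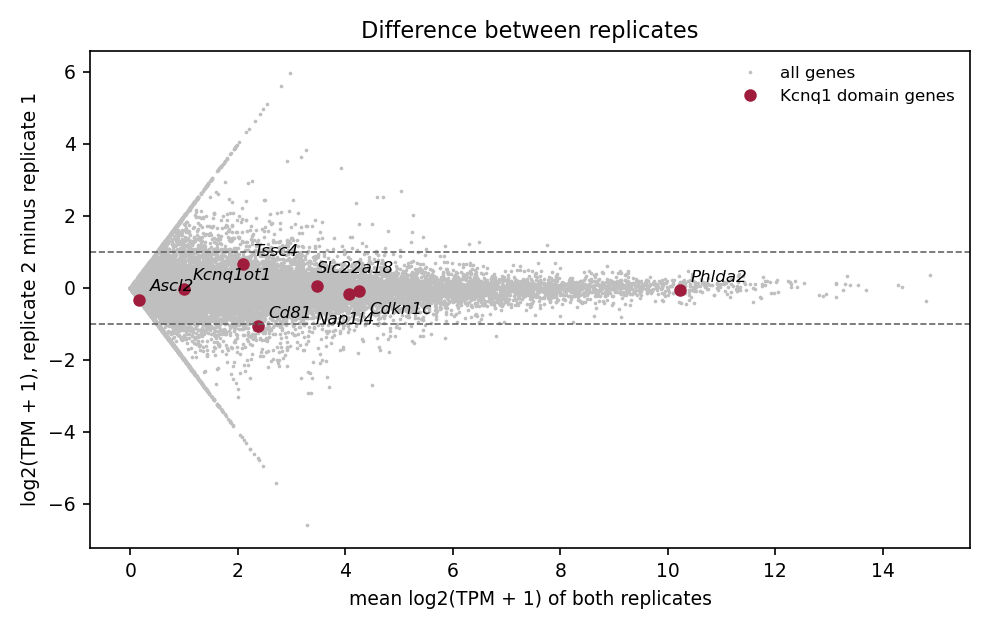
Difference in log2(TPM + 1) of replicate 2 minus replicate 1 against the mean of both, for all genes (grey) and the 8 domain genes (red), with dashed lines at 2-fold. Cd81 is below the lower line, and the other 7 domain genes are between the lines.

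The domain genes were then set beside other members of their families, of which 12 of 20 listed paralogues had a row. In the Phlda family the comparison rests on Phlda1, the only listed paralogue of Phlda2 with a row. Phlda1, which encodes a related pleckstrin homology protein, was at 1.96 TPM in replicate 1 and 1.49 TPM in replicate 2. Phlda2 was 628-fold and 788-fold above it. In the Cdkn1 family, Cdkn1a, the inhibitor induced by p53, was at 5.30 and 9.15 TPM. Cdkn1c was 3.52-fold and 1.91-fold above Cdkn1a, with intervals that did not overlap in either library. Cdkn1b, the remaining gene of this family, was at 1.83 TPM in replicate 1 and 0.0657 TPM in replicate 2, from 79 reads and 1 read.

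In 2 other families the domain gene was not the highest of the listed genes with a row. Nap1l1, the widely expressed histone chaperone, was at 253 and 271 TPM, 14.9-fold and 18.3-fold above Nap1l4. Nap1l3 (0.964 and 1.69 TPM) and Nap1l5 (0.913 and 2.43 TPM) were below Nap1l4. Among the tetraspanins, Cd9, which eggs need to fuse with sperm, was at 146 and 117 TPM, 22.5-fold and 45.0-fold above Cd81. Cd63, at 8.80 and 6.17 TPM, was also above Cd81. Cd151, named after its values were seen, was at 3.07 and 2.07 TPM, below Cd81 in both libraries. Slc22a23 was at 0.0988 and 0.0468 TPM and Slc22a17 at 0.675 and 0.132 TPM, both below Slc22a18.

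**Figure D4:**
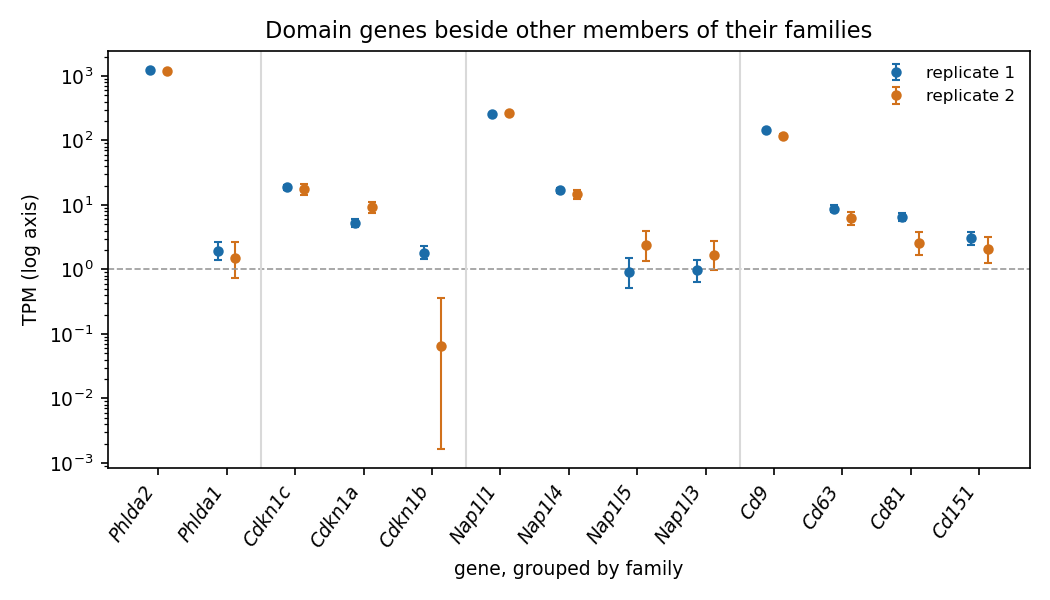
TPM on a log axis in both libraries for Phlda2, Cdkn1c, Nap1l4 and Cd81 and for the listed paralogues of these genes that had a row. Vertical lines separate the 4 families, bars are exact 95% counting intervals, and a dashed line marks 1 TPM. Phlda2 and Cdkn1c lead the genes shown of their families. Nap1l1 is 14.9-fold and 18.3-fold above Nap1l4, and Cd9 is 22.5-fold and 45.0-fold above Cd81.

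The kinases and cyclins that Cdkn1c acts on, with Pcna of the replication fork, were all expressed. All 10 listed genes were above 1 TPM in both libraries, beside 60.0% of all genes. Pcna was at 542 and 465 TPM, Ccna2 at 149 and 136 TPM and Cdk4 at 101 and 97.6 TPM, all above Cdkn1c. Cdk2, a main target of Cdkn1c, was at 6.75 and 4.28 TPM, below Cdkn1c in both libraries. The E-type cyclin Ccne2 was at 36.7 and 35.5 TPM and Ccne1 at 9.998 and 8.65 TPM. The D-type cyclins ranged from 3.56 to 5.09 TPM over both libraries, and Cdk6 was at 1.90 and 1.24 TPM. None of the 10 was past 2-fold between replicates, where 10.2% of all genes were. All 10 were lower in replicate 2, as were 51.3% of all genes.

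Genes whose products silence imprinted domains or keep their methylation were mostly detected. These include the Polycomb proteins and the histone methyltransferases that act with Kcnq1ot1, the maintenance methyltransferase Dnmt1 with its partner Uhrf1, and the KRAB zinc finger proteins that protect imprints. All 18 listed genes had a row and 16 were at 1 TPM or more in both libraries, beside 60.0% of all genes. Dppa3, which is also a PGC marker, was the highest at 5013 and 5075 TPM. Hnrnpk, an RNA-binding protein that brings Polycomb to Kcnq1ot1, was at 99.5 and 82.3 TPM. The Polycomb subunit Eed was at 93.6 and 78.5 TPM, and Trim28, the corepressor recruited by KRAB zinc finger proteins, at 68.6 and 61.1 TPM.

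The lowest genes of this list were Zfp57, Ring1, Ehmt2 and Uhrf1. Zfp57, the zinc finger protein that keeps methylation at imprinted regions, was at 0.167 and 0.0790 TPM, from 6 reads and 1 read. Ring1, a ubiquitin ligase of Polycomb, was at 0.357 and 0.922 TPM. Ehmt2, a histone methyltransferase that silences placental genes of the domain, was at 1.05 and 1.69 TPM, and Uhrf1 was at 2.15 and 2.25 TPM. Named after its values were seen, Dnmt1 was at 19.1 and 18.9 TPM and Zfp445, another zinc finger protein of imprint maintenance, at 11.5 and 7.31 TPM. Trim28 was thus expressed with Zfp445, while Zfp57 was near the level of single reads. None of the 18 was past 2-fold between the replicates, where 10.2% of all genes were.

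**Figure D5:**
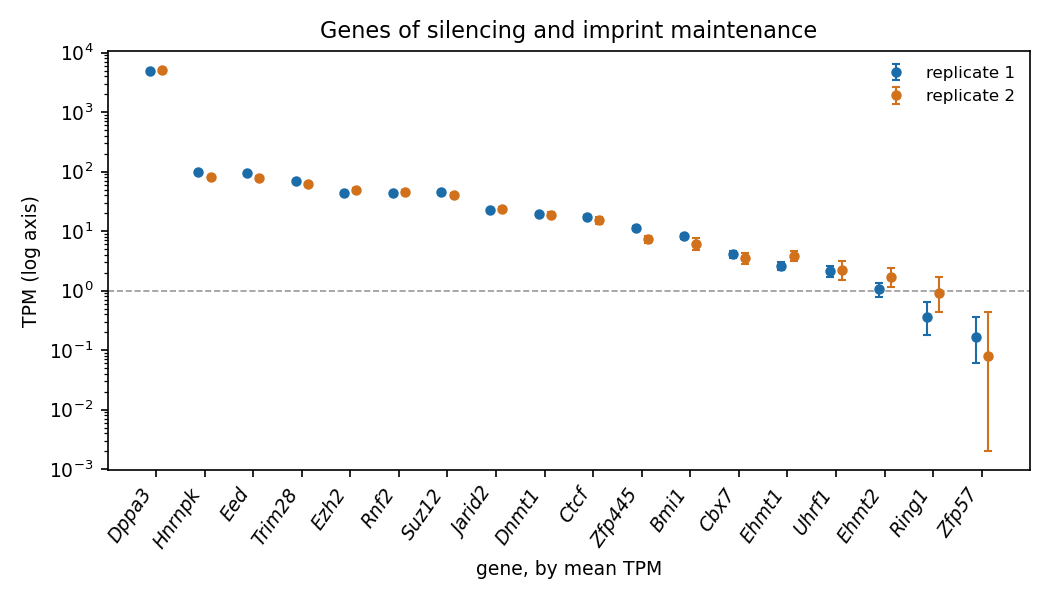
TPM on a log axis in both libraries for the 18 genes of silencing and imprint maintenance, ordered by mean, with exact 95% counting intervals and a dashed line at 1 TPM. Dppa3 is at 5013 and 5075 TPM, and Ring1 and Zfp57 are the 2 genes below the line in both libraries.

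The label of the cells was checked against markers. All 12 PGC markers were at 1 TPM or more in both libraries, beside 60.0% of all genes, and ranged up to Dppa3. The lowest was Pou5f1, a core pluripotency and PGC gene, at 1.54 and 1.46 TPM from 33 and 11 reads, above 39.6% and 39.7% of genes. Erythroid markers were also high, with 6 of 9 measured and a summed level of 3983 and 3765 TPM, led by the embryonic globin Hba-x at 2331 and 2065 TPM. Mesenchyme markers summed to 2.37 and 3.95 TPM, and endoderm markers to 2.57 and 7.96 TPM with Foxa1 at 0 in both. The part of these other cells in the levels of the domain genes was not tested. In bulk samples, fewer cells of a type and less RNA per cell cannot be told apart.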

How the data were processed

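RNA-seq of E9.5 PGCs was deposited by the authors as TPM per gene symbol for 2 libraries. By the methods, clean reads were aligned to mm10 with Hisat2 and assigned to genes with featureCounts, whereas the submitters' processing notes also name Bowtie2, RSEM, DESeq2 and R 3.4.2. The annotation and strand handling are not given in the sources used here. TPM is relative, so abundant genes lower all others. A single identifier in GENCODE M21 (GRCm38) was found for 18748 symbols. TPM multiplied by exonic length gave whole multiples of 1 read: 96.7% and 95.8% of values under 50 reads were within 0.02 of a whole number. Totals were 15912469 and 5458687 reads, which set the exact 95% Poisson intervals, the conditional intervals of ratios and the limit of a 0 (3 reads). These cover counting error only. The libraries differed beyond counting noise (chi-square per gene of 10.8 over 11115 genes) and were kept as 2 samples.

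Differences are on the log2(TPM + 1) scale, which understates changes of low genes. No test was run, since there was 1 group. The members and lists were chosen with earlier results of these data known. From lists of 10 or fewer measured genes every gene could be named, and from longer lists the 4 highest and 4 lowest by mean TPM with the paralogues of Phlda2, Cdkn1c and Nap1l4, plus the 3 genes nearest in level to Phlda2 and to Cdkn1c. Values of some single genes under this rule are not reported here. Alternatives were a pseudocount of 0.1, thresholds of 0.5 and 5 TPM, a filter at a mean of 1 TPM, recovered reads, rescaling without genes under 200 exonic bases, and leaving out each replicate. Read recovery was tested on simulated data. Python 3.11.15, numpy 2.4.6, pandas 2.3.3, scipy 1.17.1 and matplotlib 3.10.9 were used.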

Additional observations from a re-analysis of the deposited data

How the results depend on the processing

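Phlda2 stayed the highest of the domain genes under each alternative run. Its distance to the next gene was 5.98 in log2(TPM + 1), 5.966 to 5.995 when each replicate was left out, 6.05 with a pseudocount of 0.1, and 3.83 in recovered reads scaled to library size, where length is not divided out and the next gene is Kcnq1ot1. Its share of the 8 genes was 95.8% in TPM and 86.2% in reads. The median of the 8 genes was 3.07, and it was 2.90 with a pseudocount of 0.1, 3.78 over genes with a mean of at least 1 TPM (fewer genes), 3.27 after rescaling without genes under 200 exonic bases, which raised the median of all genes kept by 0.17, and 2.97 to 3.18 when each replicate was left out. The number of genes past 2-fold was 1, and 2 with a pseudocount of 0.1. The number detected was 6, with 7 at a threshold of 0.5 TPM or after rescaling, 4 at 5 TPM, and 6 and 7 when replicates 1 and 2 were left out. The 16 silencing genes detected became 12 at 5 TPM. The comparison of Kcnq1ot1 with Kcnq1 was not run because Kcnq1 was not analysed here. No paired analysis was possible because there was 1 group. Depth limits the low genes: Ascl2 rested on 4 reads and 0 reads.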

Other observations

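Beyond the domain, 6 of 13 listed neighbours had a row. Of these, 5 were at 1 TPM or more in both libraries, beside 60.0% of all genes. H19, the maternally expressed RNA of the adjoining imprinted cluster, was at 4.40 TPM in replicate 1 and 3.53 TPM in replicate 2, and the growth factor gene Igf2 was at 2.28 and 1.83 TPM, from 124 and 35 reads. The overlapping gene Gm49394, named after its values were seen, had the same 124 and 35 reads. Ins2, an insulin gene whose annotated 5′ end lies at -553 kb from the Kcnq1ot1 start, was at 18.5 and 16.6 TPM, close to Cdkn1c. Its annotation runs from base 142678656 to 142743381 with 1312 exonic bases, and 1 value per gene does not separate its transcripts. Cars was at 4.59 and 5.04 TPM, Dhcr7 of cholesterol synthesis at 3.27 and 1.95 TPM, and Nadsyn1 at 1.30 and 0.905 TPM. None of the 6 was past 2-fold between replicates, where 10.2% of all genes were.

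Partners of the low domain genes were measured as well. Tcf3, a partner of Ascl2 in binding DNA, was at 43.1 and 45.6 TPM, while Tcf12 was at 3.90 and 3.51 TPM and Tcf4 at 1.47 and 1.19 TPM. Ptgfrn and Igsf8, which bind Cd81 at the cell surface, were at 2.68 and 1.80 TPM and at 0.726 and 1.03 TPM. Kcne3, a subunit of Kcnq1 channels, had 20 reads in replicate 1 and 0 in replicate 2.

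By distance on the log2(TPM + 1) scale over both libraries, the genes nearest to Phlda2 included Sarnp (1231 and 1149 TPM, distance 0.0337) and mt-Rnr1 (1188 and 1198 TPM, distance 0.0550). The genes nearest to Cdkn1c were Armc1 (18.7 and 17.5 TPM, distance 0.00447), Mrps11 (18.9 and 17.4 TPM, distance 0.0175) and Maip1 (18.6 and 17.2 TPM, distance 0.0206). With 2 libraries, this compares levels only.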
